A study of Mus musculus with 110 samples.

Results

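The data described here are V(D)J junctions of a mouse pro-B cell line in which the cohesin subunit Rad21 could be degraded and the control region IGCR1 had been deleted. The libraries were chosen by title: 4 from cells given the auxin indole-3-acetic acid (IAA) and 4 from untreated cells (labelled NT), 8 of the 110 libraries of the series. All 8 came from a v-Abl transformed pro-B line, a mouse B-cell precursor line immortalised by a viral kinase, with the genotype IGCR1 deleted, Rad21 degron, Eμ-Bcl2 and RAG2-deficient. Both groups thus carry the deletion, the degron and the Bcl2 transgene, which keeps the cells alive after they are arrested. RAG2, which completes the recombinase, was delivered by nucleofection, and the Abl kinase inhibitor STI-571 was given at 3 μM for 4 days. The IAA group received IAA at 500 μM for 6 h beforehand and then together with STI-571. The treatment label of IAA replicate 4 lists STI-571 but no IAA, and its title was followed. The labels do not say whether the replicates were separate cultures or whether the line is a clone, so the p-values below measure only the spread between these libraries. The Rad21 level was not analysed here, so the extent of its loss is not known.

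IGCR1 is a region between the D and VH gene segments of the immunoglobulin heavy chain locus (Igh) that binds the insulator protein CTCF. Cohesin extrudes chromatin loops, and in pro-B cells such loops carry Igh chromatin past the recombination centre at the JH segments, where RAG cuts at recombination signal sequences (RSSs). Joining is normally ordered: a D segment joins JH first, and a VH segment then joins the DJ product. Ighd4-1 (DQ52) is the D segment next to JH and lies close to the recombination centre, Ighd1-1 (DFL16.1) lies at the far end of the main D cluster, and Ighv5-2 (VH81X) is a D-proximal VH segment much used in pro-B cells. Each read joins a bait at JH4 to a prey site. A read ending at a D segment is therefore a DJ join, whereas a read ending at a VH segment is normally a VDJ join with the D segment between bait and prey.

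The IAA libraries held 2668, 2244, 1608 and 1914 junctions and the untreated ones 13508, 15327, 5329 and 14463, replicates 1 to 4. Every IAA library was smaller than every untreated library; a segment with 3 junctions makes up between 0.112% and 0.187% of an IAA library and between 0.0196% and 0.0563% of an untreated one. Of the reads in a library, 34.0% to 46.2% with IAA and 46.7% to 54.4% without were distinct junctions. Replicates 1, 2 and 4 of both groups shared a sequencing run and the replicate 3 libraries shared another. Shares are percentages of all junctions in a library.

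The D segments below are those the results turn on, shown as they stand in the reads. The letters run from the coding end that joins JH4 through the D segment to the heptamer of its upstream RSS, in capitals, which stays intact in a DJ join and is cut when VH joins. Reads run along the plus strand of chromosome 12, opposite to Igh transcription, and positions are those of the hybrid genome used by the authors. The D segments at 19.2 kb and 48.2 kb from JH4 have no symbol of their own here; they are closest to Ighd2-5 of mm9 (96.2% identity) and to Ighd1-1 (76.1%), and are called the Ighd2 D at 19.2 kb and the Ighd1-like D.
JH4 end of the bait (chr12:114671111-114671130): gtagtccatagcatagtaat
Ighd4-1 (chr12:114673092-114673109): gtcccagttagCACTGTG
Ighd3-2 (chr12:114687615-114687637): gtagcccgagctgtctCACTGTG
Ighd2 D at 19.2 kb (chr12:114690289-114690312): gtagttaccatagtaggCACAGTA
Ighd1-like D (chr12:114719361-114719384): gtagccgtagtaatgaaCACAGTA
Ighd1-1 (chr12:114734547-114734576): gtagctactaccgtagtaataaaCACAGTA
Ighd3-1 (chr12:114784067-114784090): gtagcccgagctgtgccCACTGTG
Ighd4-1 is the shortest of them at 11 bases and Ighd1-1 the longest at 23.

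With IAA, DJ joins to the nearest D segment took the largest share, while joins to the farthest D of the main cluster and to VH were rare. Ighd4-1 held 52.8%, 53.5%, 54.4% and 55.0% of junctions with IAA and 11.6%, 13.7%, 16.9% and 14.1% without. Ighd1-1 held 1.27%, 1.47%, 0.746% and 1.15% with IAA against 12%, 9.66%, 7.52% and 13.0% without. The VH region held 5.73%, 5.93%, 7.21% and 5.69% against 53.0%, 51.5%, 50.7% and 47.5%. No IAA library overlapped an untreated one in any of these measures. The D segments lying between Ighd4-1 and Ighd1-1 behaved otherwise: together they held 26.01% ± 3.63 with IAA and 21.8% ± 1.28 without (SD, n = 4 each), and the groups overlapped (two-sided exact permutation p = 0.0857). Among Igh junctions alone, this share was higher with IAA by 7.14 percentage points (exact permutation p = 0.0286). With identical junctions counted once it was 28.97% ± 4.08 and 27.2% ± 1.74 (SD, n = 4 each), a difference of 1.80 points (exact permutation p = 0.400). An exact permutation p of 0.0286 is the smallest that 4 against 4 libraries allow. Over the 53 planned comparisons of shares and join structure, 28 had groups that did not overlap (52.8%) and an exact permutation p of 0.0286. After Benjamini-Hochberg adjustment these came to 0.0541 and 0 of 53 (0.0%) passed 0.05, so the shares below are described as overlapping or not.

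**Figure D1:**
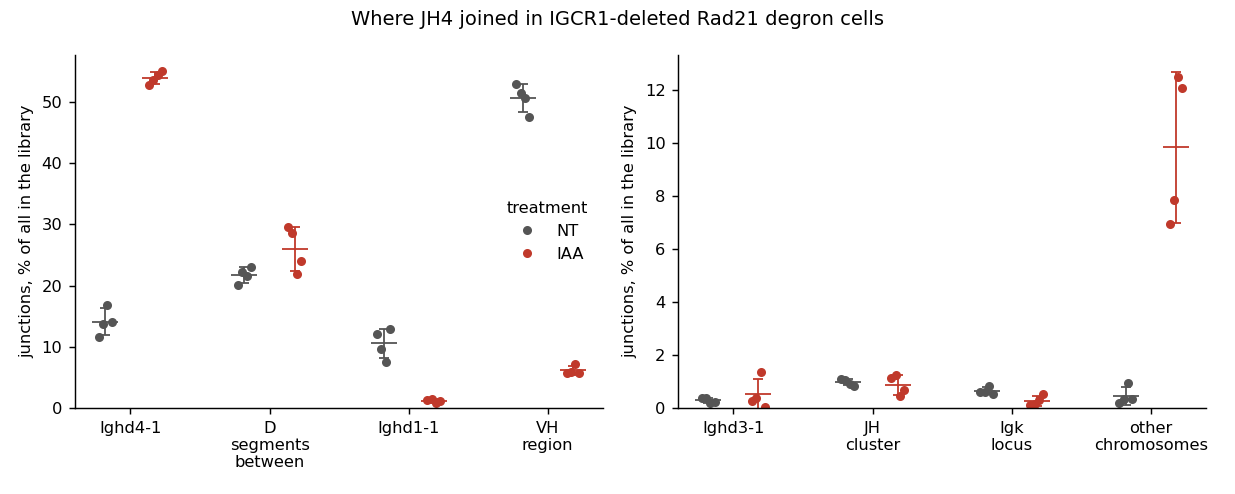
Percent of each library's junctions (linear axes) at 4 parts of Igh on the left and at rarer sites on the right; dots are replicates, horizontal bars the mean and vertical bars the SD (n = 4). Ighd4-1 is at 52.8% to 55.0% with IAA and 11.6% to 16.9% without, and the VH region is at 5.69% to 7.21% against 47.5% to 53.0%.

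Segment by segment, limma (voom weights, Benjamini-Hochberg adjusted p under 0.05) called 9 of 18 tested segments (50%), 3 higher with IAA (16.7%) and 6 lower (33.3%). The 3 higher ones were the tested D segments nearest JH4. The scale is all junctions, of which VH joins took far less with IAA. A segment called higher therefore need not hold a higher share of D joins. Ighd4-1 rose by 1.97 on the log2 scale (SE 0.0973, adjusted p = 4.98e-09 by limma). Ighd3-2, 16.5 kb from JH4, was at 1.76%, 1.87%, 1.18% and 1.67% with IAA and 0.911%, 0.894%, 0.6005% and 0.954% without. All IAA values lay above all untreated ones, and the segment rose by 0.93 (SE 0.218, adjusted p = 0.00346 by limma). Of all D joins, Ighd3-2 was 47 of 2239, 42 of 1882, 19 of 1261 and 32 of 1535 with IAA. Without IAA it was 123 of 5950, 137 of 7053, 32 of 2461 and 138 of 7286. On that scale the groups overlapped, since IAA replicate 3 lay within the untreated range. Of the D segments between Ighd4-1 and Ighd1-1, Ighd3-2 was 6.22% ± 0.696 with IAA and 3.865% ± 0.756 without, with no overlap (SD, n = 4 each; exact permutation p = 0.0286, or 0.0857 after Benjamini-Hochberg adjustment over 21 added comparisons). The Ighd2 D at 19.2 kb, the most used D between Ighd4-1 and Ighd1-1 in untreated cells, was at 10.6%, 10.7%, 5.47% and 7.52% with IAA and 4.91%, 5.56%, 5.89% and 6.60% without. IAA replicate 3 lay below its run partner at 5.89%, and the other IAA libraries lay above every untreated one. Its log2 change of 0.58 (SE 0.183, adjusted p = 0.0184 by limma) lost the call without IAA replicate 1 (0.0997), IAA replicate 2 (0.0691), NT replicate 1 (0.0585) or NT replicate 2 (0.0533), and without voom weights (0.0974). Of all D joins, this D was 283 of 2239, 241 of 1882, 88 of 1261 and 144 of 1535 with IAA. Without IAA it was 663 of 5950, 852 of 7053, 314 of 2461 and 954 of 7286. On that scale IAA replicates 1 and 2 lay within the untreated range and replicates 3 and 4 below it. Among D joins other than those to Ighd4-1, this D was also higher with IAA in the parental line, with values given below.

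None of the 8 tested D segments between 24.6 kb and 56.6 kb from JH4 passed the test, and their log2 changes ran from −0.36 to 0.46. The least used of them, the Ighd1-like D, was at 1.54%, 0.312%, 0.187% and 0.627% with IAA and 0.385%, 0.561%, 0.450% and 0.367% without. IAA replicate 1 alone stood above the untreated range. Its 41 junctions were 6 distinct ones. Ighd2-3, the last tested D before Ighd1-1 and 56.6 kb from JH4, came to 4.24% ± 0.670 with IAA and 3.54% ± 0.117 without (SD, n = 4 each; log2 0.28, SE 0.122, adjusted p = 0.0816 by limma). It was called higher with the sequencing run as a block (adjusted p = 0.0379 by limma), with median-of-ratios scaling (0.0288), with bait ends within 20 bases of the JH4 end (0.00662) and without IAA replicate 3 (0.0124). Ighd1-1 is the next tested segment, 63.4 kb from JH4. It fell by 3.16 on the log2 scale (SE 0.453, adjusted p = 8.91e-05 by limma), with 101 junctions in the IAA libraries against 5375. Among D joins other than those to Ighd4-1, Ighd2-3 made up 15.3% ± 1.25 with IAA and 10.9% ± 0.754 without (SD, n = 4 each), with no overlap (exact permutation p = 0.0286). As a share of the D segments between Ighd4-1 and Ighd1-1 it was 16.3% in both groups. The D segment at 43.6 kb, closest to Ighd2-6, was at 12.5% ± 1.80 of those joins with IAA against 16.3% ± 0.576 (SD, n = 4 each; exact permutation p = 0.0286, or 0.0857 after Benjamini-Hochberg adjustment over 21 added comparisons), again with no overlap.

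**Figure D2:**
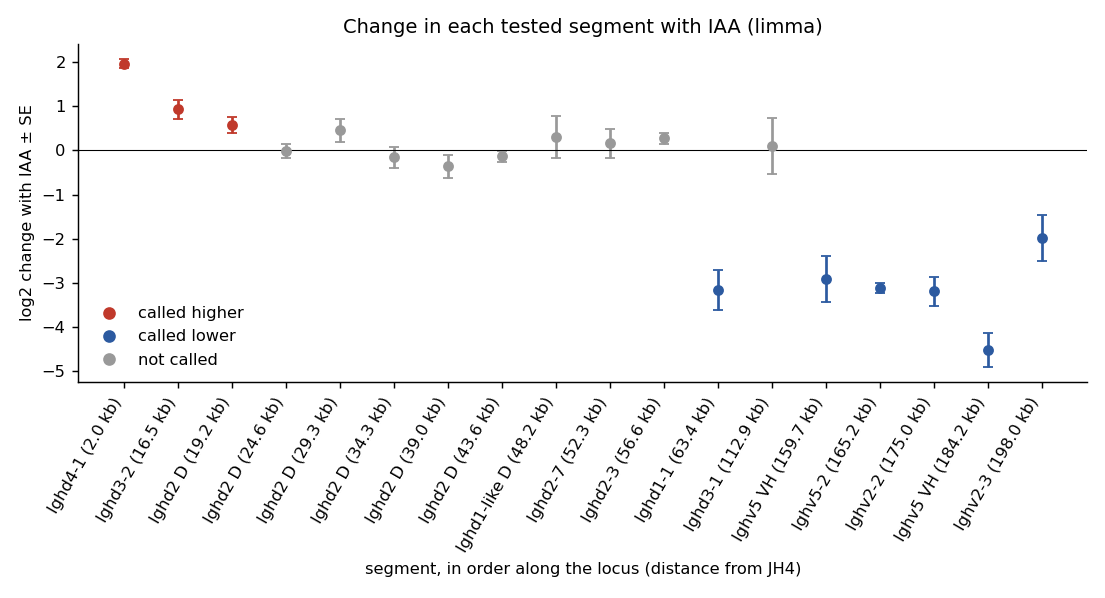
Log2 change with IAA for each of the 18 tested segments in their order along the locus, with the distance from JH4 in brackets; dots are limma estimates from 4 against 4 libraries and bars the SE. On the scale of all junctions, the 3 nearest tested D segments are called higher. The D segments from 24.6 kb to 56.6 kb run from −0.36 to 0.46 and are not called. Ighd1-1 and the VH segments are called lower, while Ighd3-1 is not called.

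All 5 tested VH segments fell. The filter took the mean over all 8 libraries, and the untreated ones were deeper. The segments at 114830808 and 114855364 and Ighv2-3 passed it only through the untreated libraries. The filter thus favoured VH segments high without IAA, and the direction of these calls is not independent of it. Ighv2-9, with 6 junctions with IAA and 3 without, was not tested. Ighv5-2 held 4.65%, 4.50%, 5.10% and 3.76% of junctions with IAA and 40.9%, 40.2%, 38.7% and 36.0% without (log2 −3.11, SE 0.116, adjusted p = 4.88e-10 by limma). Ighv2-2, 175.0 kb from JH4, held 0.337%, 0.802%, 0.622% and 1.25% against 6.09%, 6.11%, 6.94% and 6.25% (log2 −3.20, SE 0.324, adjusted p = 4.12e-06 by limma). The most D-proximal VH tested starts at 114830808 (an Ighv5 gene, 90.8% identical to mm9 Ighv5-9 over the bases compared). It held 0.562%, 0.357%, 0.0622% and 0.470% against 2.95%, 2.56%, 2.05% and 2.03%. In each of these 3 segments every IAA library lay below every untreated one. The remaining pair of VH segments had few reads with IAA. The Ighv5 segment at position 114855364 (closest to Ighv5-4, 96.2%) had 3 junctions with IAA and 528 without, a 30.5-fold lower share (95% exact binomial interval 10.4 to 148, counting error only). Ighv2-3 had 5 against 139 junctions (log2 −1.99, SE 0.523, adjusted p = 0.00668 by limma).

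Within VH joins the mean shares of the 3 most used segments had the same order in both groups. The segment at 114830808, the third of them, made up 10.0%, 6.15%, 0.990% and 8.33% with IAA and 5.73%, 5.09%, 4.13% and 4.43% without, and in IAA replicate 1 it lay above Ighv2-2, with 15 junctions against 9. Ighv5-2 made up 82.7%, 77.7%, 81.2% and 66.7% of VH segment joins with IAA and 79.4%, 79.97%, 78.0% and 78.9% without (exact permutation p = 0.857), so the IAA values spread around the untreated ones. Ighv2-2 made up 13.0% ± 6.94 against 12.9% ± 1.09 (SD, n = 4 each; exact permutation p = 0.971). The segment at 114855364 made up 0.667%, 1.54%, 0% and 0% against 2.18%, 2.14%, 2.61% and 2.15%, with no overlap. These comparisons depend on repeat reads. With identical junctions counted once, Ighv5-2 was at 77.2% ± 4.04 with IAA and 67.5% ± 2.62 without, and Ighv2-2 at 12.9% ± 3.43 and 19.1% ± 1.07 (SD, n = 4 each; exact permutation p = 0.0286 for both). Beyond Ighv2-3 the IAA libraries held 3, 0, 19 and 2 VH junctions, of which replicate 3 had 5 distinct ones, and the untreated libraries 36, 25, 18 and 38.

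Ighd3-1 is a D segment apart from the main cluster, 112.9 kb from JH4 on the VH side of Ighd1-1. It held 0.262%, 0.357%, 1.37% and 0.0523% of junctions with IAA and 0.363%, 0.385%, 0.188% and 0.228% without, and the groups overlapped (log2 0.10, SE 0.629, adjusted p = 0.925 by limma). The IAA values span both sides of the untreated range, with replicate 3 highest. They rest on 38 junctions, 13 of them distinct, and replicate 4 had 1. In the Rad21 degron line that keeps IGCR1, there were 2 junctions at Ighd3-1 without IAA and 0 with it. The interval from Ighd1-1 to the first used VH, leaving out Ighd3-1, held 0.244% ± 0.122 with IAA and 0.351% ± 0.176 without (SD, n = 4 each; exact permutation p = 0.371). Joins there carried 9.75 ± 3.14 inserted bases without IAA and 2.75 ± 2.40 with it (SD, n = 4 each; exact permutation p = 0.0571), from 183 and 22 junctions.

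The D segment carried inside a VDJ join was read from the bases between JH4 and VH, as the longest exact match of at least 8 bases to the D segments. Examples from Ighv5-2, with these bases in capitals, show what such reads look like; each is the most recurrent join of its kind.
Ighv5-2 join over Ighd4-1: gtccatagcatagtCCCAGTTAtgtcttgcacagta
Ighv5-2 join over an Ighd2 segment: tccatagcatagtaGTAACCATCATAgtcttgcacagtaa
Ighv5-2 join over Ighd1-1: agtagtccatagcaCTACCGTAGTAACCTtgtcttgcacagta
Ighv5-2 join over the Ighd1-like D: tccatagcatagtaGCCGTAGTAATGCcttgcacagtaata
The Ighd4-1 example was read 1 time with IAA and 4 times without, in 3 libraries.

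Of VH joins, 59.6%, 71.5%, 64.0% and 54.1% could be assigned a D segment with IAA and 53.3%, 53.0%, 52.5% and 52.0% without. Ighd4-1, by far the most used partner among DJ joins with IAA, did not stand apart inside VH joins. It made up 17.8%, 16.1%, 15.1% and 15.3% of assigned VH joins with IAA and 13.9%, 12.8%, 17.5% and 14.6% without (exact permutation p = 0.257). The groups overlapped, with means of 16.1% ± 1.24 and 14.7% ± 1.99 (SD, n = 4 each). Among DJ joins it made up 66.2% ± 3.26 against 30.2% ± 4.49 (SD, n = 4 each), with no overlap. At a match of at least 10 bases, which leaves nearly the whole D segment, it made up 8.91% ± 0.508 of assigned VH joins with IAA and 5.95% ± 0.982 without (SD, n = 4 each; exact permutation p = 0.0286). Its core of 11 bases reaches a match of 8 only where little of it was trimmed. In DJ joins its end had lost 2.05 ± 0.0676 bases with IAA and 3.05 ± 0.237 without (SD, n = 4 each). Its trimming inside VH joins was not measured, so these shares cannot separate its use from its detection in either group.

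The Ighd2 family made up 82.2%, 82.8%, 76.7% and 76.3% of assigned VH joins with IAA and 73.8%, 75.6%, 72.3% and 72.2% without, with no overlap (exact permutation p = 0.0286). With identical junctions counted once the difference was 1.502 percentage points (exact permutation p = 0.429). The Ighd3 family was absent from 315 assigned joins with IAA, which allows a share of up to 0.952%, and was in 493 assigned joins without, at 4.44%, 3.77%, 3.16% and 3.77%. Ighd1-1 was found in 0, 1, 6 and 0 joins with IAA and in 6.58% ± 0.787 (SD, n = 4) of assigned joins without. The IAA values, 0%, 1.08%, 8.22% and 0%, lie on both sides of the untreated range, and the permutation test gave p = 0.143 (exact). The share of VH joins with under 5 inserted bases came to 7.27% ± 2.25 with IAA and 8.56% ± 0.756 without (SD, n = 4 each; exact permutation p = 0.371).

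**Figure D3:**
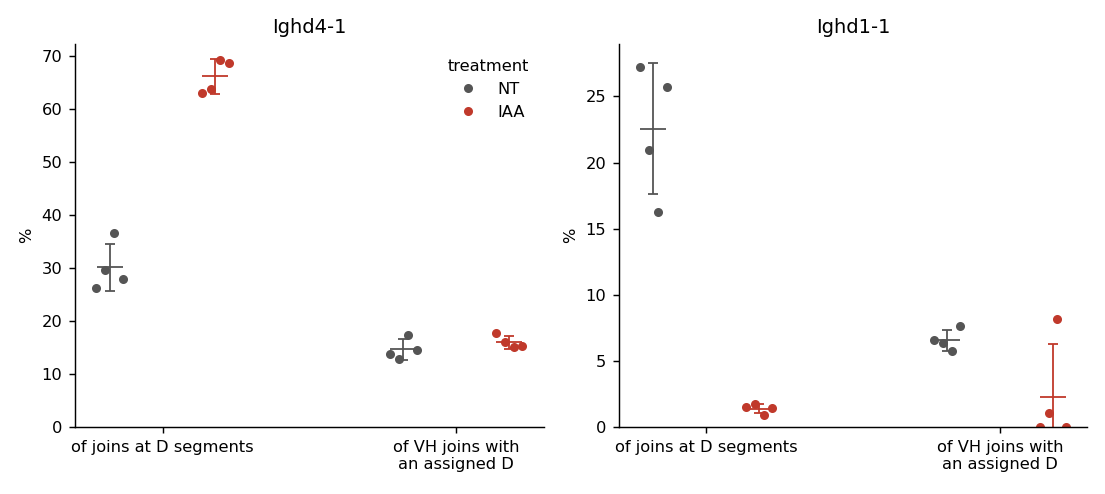
Share of Ighd4-1 (left) and Ighd1-1 (right) among joins at D segments and among VH joins with an assigned D, in percent on linear axes; dots are replicates, horizontal bars the mean and vertical bars the SD (n = 4). Ighd4-1 is at 62.9% to 69.3% of D joins with IAA but at 15.1% to 17.8% of assigned VH joins, next to 12.8% to 17.5% without IAA.

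The DJ joins that formed with IAA also had another structure. They carried fewer inserted bases, more often shared bases between both ends (microhomology), and had lost fewer bases at each end. A pair of Ighd4-1 joins found in all 8 libraries illustrates both forms, with the shared or the inserted bases in capitals.
Ighd4-1 join with shared bases: tagtccatagcataGTcccagttagcactg
Ighd4-1 join with an inserted base: gtccatagcatagtCgtcccagttagcac
The first was read 326 times with IAA and 256 times without, and the second 41 and 67 times.

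At Ighd4-1 the mean number of inserted bases was 1.99, 1.97, 2.26 and 2.18 with IAA and 2.85, 2.80, 2.97 and 2.86 without. Joins with shared bases made up 14.9%, 14.4%, 17.8% and 15.0% against 8.80%, 8.35%, 7.56% and 7.69%. Bases trimmed from the D end were 2.05 ± 0.0676 against 3.05 ± 0.237, and bases trimmed from the JH4 end 3.64 ± 0.329 against 4.61 ± 0.169 (SD, n = 4 each). None of these 4 measures overlapped between the groups (exact permutation p = 0.0286, Benjamini-Hochberg 0.0541 for each). The pattern was the same at the D segments between Ighd4-1 and Ighd1-1, where inserted bases were 2.10 ± 0.270 against 3.25 ± 0.132 and joins with shared bases 21.2% ± 5.17 against 9.38% ± 1.83 (SD, n = 4 each). At Ighd1-1 the 4 measures did not overlap either, but the IAA libraries had 12 to 34 joins each, and 5, 5, 6 and 8 of those had shared bases. These differences were also measured without repeat reads: with identical junctions counted once, inserted bases at Ighd4-1 were 2.71 ± 0.113 with IAA and 3.67 ± 0.0929 without, and joins with shared bases 7.30% ± 1.48 against 4.82% ± 0.540 (SD, n = 4 each; exact permutation p = 0.0286 for both).

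At Ighv5-2 the bases between JH4 and VH include the D segment, and their number was 12.1, 13.9, 13.7 and 12.4 with IAA and 13.8, 13.6, 13.7 and 13.6 without (exact permutation p = 0.400). The JH4 end had lost 3.24 ± 0.283 bases with IAA and 4.44 ± 0.144 without (SD, n = 4 each), with no overlap. Over the 4 classes of joins, the JH4 end was less trimmed with IAA in all 4 without overlap, and each of the other measures differed without overlap in the 3 classes of DJ joins but not at Ighv5-2. With identical junctions counted once, the VH end of Ighv5-2 joins had also lost fewer bases without overlap, 2.07 ± 0.345 against 4.55 ± 0.524 (SD, n = 4 each; exact permutation p = 0.0286).

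**Figure D4:**
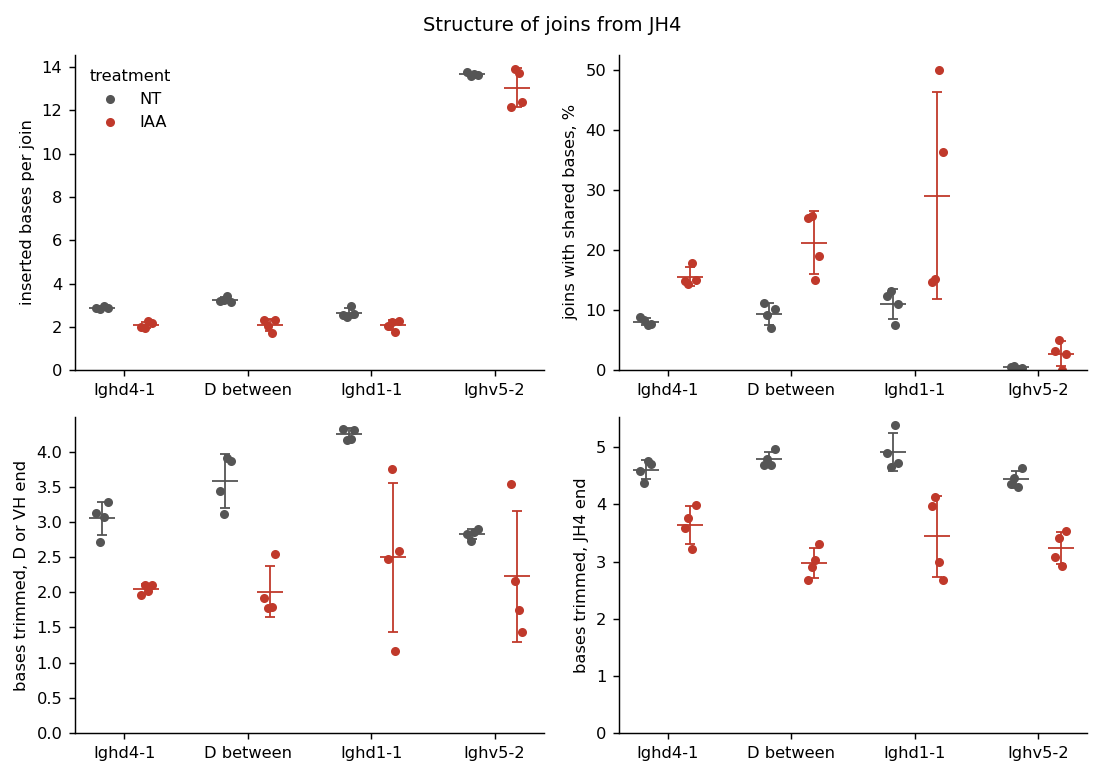
Join structure by class: mean inserted bases per join, percent of joins with shared bases, and mean bases trimmed from the D or VH end and from the JH4 end, on linear axes; dots are replicates, horizontal bars the mean and vertical bars the SD (n = 4). At the D segments all IAA libraries lie below the untreated ones for insertion and trimming and above them for shared bases; at Ighv5-2, with all reads counted, only the JH4 end separates the groups.

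These structure measures also vary between libraries of other lines for which no Rad21 degron is listed. Over 8 b libraries of the OsTIR1-only line, which expresses the adaptor that IAA acts through, inserted bases at Ighd4-1 ran from 0.502 to 2.54 and split by sequencing run. Replicates 1 and 2, in one run, were at 2.503 and 2.543 with IAA and 2.46 and 2.37 without. Replicates 3 and 4, in another, were at 0.576 and 0.502 with IAA and 0.643 and 0.690 without. In the parental line replicates 3 and 4, which shared a run, were at 1.62 and 1.55 with IAA and 1.32 and 1.23 without. Parental replicates 1 and 2, at 2.61 and 2.60 against 2.45 and 2.38, lay in different runs with and without IAA. The difference between runs was thus larger than that between groups in these lines. Both groups of the IGCR1-deleted line shared their runs. In the b libraries of the Rad21 degron line that keeps IGCR1 they were 2.48 ± 0.0682 with IAA and 2.85 ± 0.0103 without (SD, n = 3 each; exact permutation p = 0.1, the smallest for 3 against 3).

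Joins in the other orientation were few. In the VH region 7 of 511 junctions with IAA and 654 of 24616 without ran in the minus orientation, 1.32% ± 0.963 and 2.57% ± 0.658 of each library's VH junctions (SD, n = 4 each; exact permutation p = 0.0857). Minus-orientation joins from JH4 to the other JH segments made up 0.112%, 0.223%, 0.187% and 0.313% of junctions with IAA and 0.896%, 0.861%, 0.676% and 0.726% without, with no overlap (exact permutation p = 0.0286, or 0.0857 after Benjamini-Hochberg adjustment over the 21 added comparisons). They carried 10.6 ± 2.31 inserted bases with IAA and 10.5 ± 1.44 without (SD, n = 4 each), and 147 of the 394 untreated ones held a D sequence turned around. At the Igk light chain locus on chromosome 6, which carries RSSs as well, there were 21 junctions with IAA and 294 without, 0.270% ± 0.191 and 0.640% ± 0.133 (SD, n = 4 each; exact permutation p = 0.0571). Counting identical junctions once, the shares were 0.334% ± 0.0253 and 1.09% ± 0.0966 (SD, n = 4 each), with no overlap (exact permutation p = 0.0286). The share with IAA rests on few distinct junctions, 4 in the plus orientation and 7 in the minus, against 185 and 71 without.

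Junctions to other chromosomes outside Igk were more numerous with IAA even in absolute number. There were 185, 176, 201 and 231 with IAA and 24, 50, 51 and 50 without, of 8434 and 48627 junctions in all. They made up 6.93%, 7.84%, 12.5% and 12.1% against 0.178%, 0.326%, 0.957% and 0.346% of junctions, with no overlap (exact permutation p = 0.0286). The 793 IAA junctions were spread over 593 bins of 1 kb, and no bin held more than 11. Their bait ends mostly lay away from the JH4 coding end: 18.8% of them with IAA and 26.9% without ended within 20 bases of it, whereas 90.1% ± 1.87 and 97.5% ± 0.400 (SD, n = 4 each) of all junctions did. Of the other-chromosome junctions, 79.9% ± 8.83 with IAA and 34.7% ± 18.0 without had shared bases (SD, n = 4 each). The rise was not particular to the deleted line. In b libraries of the Rad21 degron line that keeps IGCR1, other chromosomes held 26.4%, 10.4% and 14.9% with IAA and 0.149%, 0.237% and 0.182% without. The part of off-target priming or alignment in junctions to other chromosomes was not tested.

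The Rad21 degron line that keeps IGCR1 was treated in the same way, with 3 replicates a group. Its a and b libraries, letters the labels do not explain, were summed per replicate, while the deleted line has b libraries alone. The difference between the lines in the effect of IAA was tested by an interaction term in limma. The lines share no sequencing run, so line and run cannot be told apart, but each effect of IAA is taken within its line. On the scale of all junctions, the effects at the ends of the main D cluster were close. The log2 change of Ighd4-1 was 1.99 in the deleted line and 1.93 in the other, a difference of 0.06 (SE 0.191), and that of Ighd1-1 was −3.23 and −3.20, a difference of −0.03 (SE 0.423). As a share of D joins the effects were less alike, a difference not tested between the lines. By means, Ighd4-1 rose 2.19-fold in the deleted line and 4.53-fold in b libraries of the other. Ighd1-1 fell 15.95-fold and 9.17-fold. On the scale of all junctions the lines differed at other segments. The interaction term called 7 of 18 (38.9%), 5 with a higher change in the deleted line (27.8%) and 2 with a lower one (11.1%). All 5 were among the 10 tested D segments between Ighd4-1 and Ighd1-1, and the other 5 of those were not called. With the replicate number as a block, which in the line that keeps IGCR1 is also the sequencing run, 5 segments were called, 3 of them higher. The calls lost were the D at 43.6 kb (adjusted p = 0.0821 by limma) and Ighd2-3 (0.0612).

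The Ighd1-like D had a log2 change of 0.34 in the deleted line and of −1.53 in the line that keeps IGCR1 (difference 1.87, SE 0.689, adjusted p = 0.0329 by limma). This call was lost on leaving out any of 6 libraries, with adjusted p from 0.051 to 0.133: IAA replicate 1 (difference 1.28, 0.0918), NT replicate 1 or NT replicate 4 of the deleted line, or IAA replicate 1, NT replicate 1 or NT replicate 3 of the other. For the Ighd2 D at 19.2 kb these values were 0.58 and −0.84 (difference 1.42, SE 0.367, adjusted p = 0.00770 by limma). It was at 5.68% ± 3.11 with IAA and 10.1% ± 0.570 without in the line that keeps IGCR1 (SD, n = 3 each). The 2 lower ones, Ighd3-1 and the VH segment at 114855364, had 0 junctions with IAA in the line that keeps IGCR1, and the fitted difference then depends on the pseudocount. The split depends on the scale. With median-of-ratios scaling, 4 segments were called, 0 higher and 4 lower, 2 of them shared with the 7. The median difference over the 18 segments then moved from 0.63 to −0.47, and Ighd4-1 was among those lower, by −1.25 (adjusted p = 0.0162 by limma). Without IAA replicate 3 of the line that keeps IGCR1, 12 segments were called, 9 of them higher, and without its IAA replicate 1, 3 were called higher. Once identical junctions were merged, 13 of 17 were called, and 12 were higher, among them Ighv5-2 (2.42, adjusted p = 6.58e-05 by limma) and Ighv2-2 (0.88, adjusted p = 0.0311 by limma). Ighv5-2 was also called higher without IAA replicate 4 of the deleted line (0.0473) or IAA replicate 3 of the other (0.0123).

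**Figure D5:**
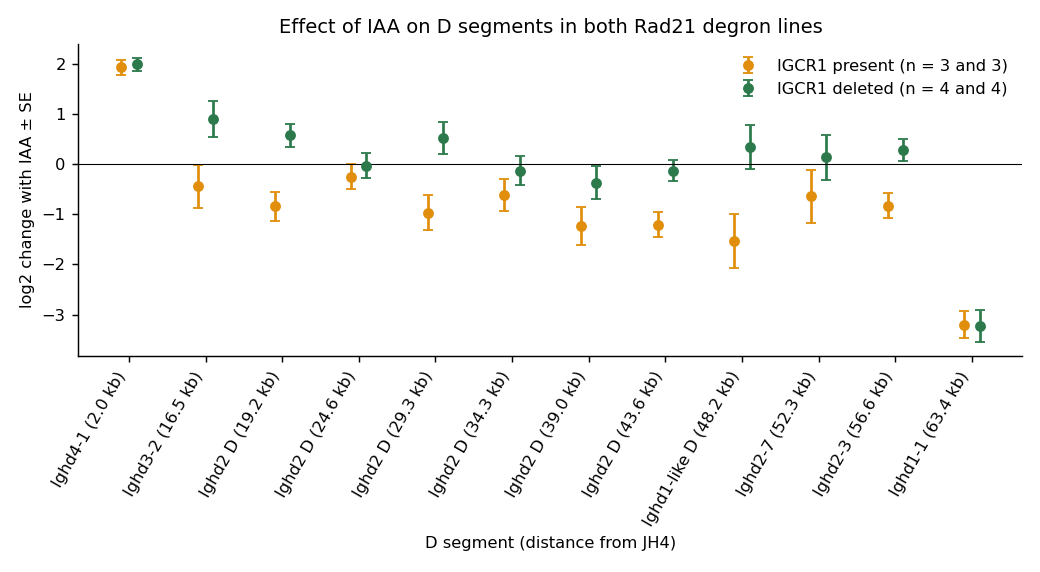
Log2 change with IAA for D segments in the Rad21 degron line with IGCR1 deleted (n = 4 and 4) and with IGCR1 present (n = 3 and 3), in order along the locus with the distance from JH4 in brackets; dots are limma estimates on the library-total scale and bars the SE. On this scale the lines lie close at Ighd4-1 and Ighd1-1. Of the 10 D segments between them, 5 are called higher in the deleted line. With median-of-ratios scaling no segment is called higher, and Ighd4-1 is called lower in the deleted line (−1.25). Ighd3-1, called lower in the deleted line, is not drawn, since the line that keeps IGCR1 had 0 junctions there with IAA.

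IAA was also given to lines without a Rad21 degron. In b libraries of the parental line, Ighd4-1 came to 5.63% ± 1.05 with IAA and 5.74% ± 0.995 without (SD, n = 4 each; exact permutation p = 0.886). Ighd1-1 was at 52.4% ± 1.79 against 60.4% ± 0.345 and the D segments between at 33.9% ± 1.83 against 26.5% ± 0.885 (SD, n = 4 each; exact permutation p = 0.0286, or 0.151 once adjusted, for both), with no overlap. Other chromosomes held 0.176% ± 0.0839 against 0.158% ± 0.0486 (SD, n = 4 each; exact permutation p = 0.657). The parental VH region held 4.19% ± 0.621 against 4.37% ± 0.870 (SD, n = 4 each; exact permutation p = 0.743). Of D joins other than those to Ighd4-1, the Ighd2 D at 19.2 kb took 9.56%, 9.9%, 10.4% and 10.2% in parental IAA libraries. Untreated parental ones had 7.78%, 7.51%, 6.935% and 6.66%, without overlap (exact permutation p = 0.0286, or 0.151 once adjusted). By means, this D was 1.39-fold higher with IAA in the parental line, 1.31-fold in the OsTIR1-only line and 1.73-fold in the deleted line. That scale includes Ighd1-1, itself lower with IAA in each of these lines. Other D segments also rose on it in the parental line, such as the D at 29.3 kb by 1.73-fold. Of the D segments between alone, the D at 19.2 kb overlapped between groups. It was at 25.5% ± 0.446 against 23.7% ± 1.94 in the parental line and 32.5% ± 5.67 against 26.3% ± 1.955 in the deleted line (SD, n = 4 each; exact permutation p = 0.143 and 0.114). How far IAA itself accounts for the rise of this D in the deleted line was not tested. In the OsTIR1-only line Ighd4-1 was at 5.61% ± 0.865 against 5.62% ± 0.752 and the VH region at 3.55% ± 0.0847 against 4.69% ± 0.970 (SD, n = 4 each; exact permutation p = 0.971 and 0.0571). Of its 4 same-numbered pairs, Ighd1-1 was lower with IAA in 4 and the D segments between in 0, as in the parental line. The Ighd1-1 share with IAA thus differed by −8.04 percentage points in the parental line and by −9.37 points in the line with IGCR1 deleted, from untreated shares of 60.4% and 10.5%. As a ratio of means, it was 1.15-fold lower in the parental line and 9.08-fold lower in the deleted line. Untreated parental replicates 1 and 2 lay in another run than their IAA partners; within the run shared by replicates 3 and 4, Ighd1-1 was at 51.1% and 50.9% with IAA and 60.5% and 59.96% without.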

How the data were processed

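V(D)J junctions from a JH4 bait were measured by LAM-HTGTS, a linear-amplification junction assay, in 8 libraries, and 28 further libraries of other lines served for comparison. Per the file headers, the files deposited by the authors hold 1 line per aligned junction read, an other kind of value than counts, from which junctions were tallied here. Bowtie2 and mm9 are named in the submitters' processing notes; versions and read filters are not given in the sources used here. The files use a hybrid genome with another Igh sequence, not used here, so segments were matched to mm9 with blastn 2.17.0 from bases near the prey ends.

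Junctions within 100 bp of a segment were summed. Segments averaging at least 10 junctions per library were tested with limma 3.58.1 (voom weights, pseudocount 0.5, library total as scale, Benjamini-Hochberg, threshold 0.05). Shares and join structure were compared by two-sided exact permutation tests over libraries. The limma step was tested on simulated data, where it called 67.5% of true absolute log2 changes of 1 and 1.94% of unchanged segments. A segment not called may therefore still differ. Intervals and limits cover counting error only, since reads carry no molecular identifiers. The members and lists were chosen with earlier results of these data known. Named segments were Ighd4-1, Ighd1-1, the 3 most used VH, the most and least used D between, and up to 4 further called segments; Ighd3-1, Ighd2-3 and the D at 43.6 kb were chosen after their values were seen. Alternatives covered scale, filter, pseudocount, weights, run, pairing, repeat reads and leaving out each library.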

Additional observations from a re-analysis of the deposited data

Results flagged for a closer look

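Of 100 groups of 4 libraries, 4 had a library far from the others; chance marks about 1 group in 20. With IAA, replicate 1 had 1.24% of junctions in the D array outside segments, where the others had 0.0891% to 0.249%. Replicate 3 had 7.21% in the VH region against 5.69% to 5.93%, and Ighd1-1 in 8.22% of its assigned VH joins against 0% to 1.08%. Without IAA, replicate 3 had 0.6005% at Ighd3-2 against 0.894% to 0.954%.

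The effect of IAA differed between the Rad21 degron lines with and without the IGCR1 deletion at 7 segments by the interaction term in limma. On the log2 scale the difference was 1.42 at the Ighd2 D at 19.2 kb, 1.49 at the D at 29.3 kb, 1.08 at the D at 43.6 kb, 1.87 at the Ighd1-like D and 1.10 at Ighd2-3. The call at the Ighd1-like D was lost on leaving out any of 6 libraries (1.28, adjusted p = 0.0918, without IAA replicate 1 of the deleted line), and those at 43.6 kb and Ighd2-3 with the replicate block (0.0821 and 0.0612). It was −3.16 at Ighd3-1 and −2.46 at the VH segment at 114855364, both without junctions in the IAA libraries of the line that keeps IGCR1.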

How the results depend on the processing

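Of 669 values under alternatives other than leaving out a library, 611 were labelled as unchanged. For limma values this means the same side of the threshold, and the direction could change where neither setting passed. Counts of calls so labelled could differ slightly, such as 9 and 10. The interaction between the lines called 7 segments (5 higher, 2 lower). It called 4 (0 higher, 4 lower) with median-of-ratios scaling, where Ighd4-1 reversed to −1.25, and 13 (12 higher, 1 lower) with identical junctions counted once. Leaving out a library gave 5 to 12 calls, 3 to 9 higher and 1 to 3 lower. With identical junctions counted once, Ighv5-2 of VH segments reversed to a difference of 9.67 points and Ighv2-2 to −6.29. The D segments between differed by 7.14 points over Igh junctions alone and by 6.87 with bait ends within 20 bases, a setting chosen after seeing the data, but by 1.80 with identical junctions counted once. Ighd4-1 in assigned VH joins differed by 2.96 points with matches of at least 10 bases. Within the run of 1 pair the differences were 37.5 points at Ighd4-1, 0.373 at the D segments between, −6.78 at Ighd1-1 and 1.18 at Ighd3-1. The causes were not tested. In the deleted line the replicate 3 libraries shared a run of their own, and the other replicate numbers do not mark a run. Same-numbered pairs, replicates 1 to 4, correlated at −0.0421, −0.291, 0.00478 and 0.155 over 18 segments. In the line that keeps IGCR1 each number is a run shared by both groups. The replicate block gave 5 interaction calls (3 higher, 2 lower), losing the D at 43.6 kb and Ighd2-3, and changed no other limma call. The run block and median-of-ratios scaling each gave 10 segment calls (4 higher) in place of 9 (3 higher), adding Ighd2-3. For shares, 4 pairs allow no exact sign-flip p under 0.125. The IAA libraries' depth limits rare segments.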
